A study of Mus musculus with 6 samples.

Results

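The 36 genes described here encode the machinery of cell division: the kinases and phosphatases that start mitosis, the spindle checkpoint, the kinetochore and spindle, and the proteins that part the daughter cells. They were listed by name and read from the array spots that carry these symbols, older symbols included. The names use no measured value, but the list was chosen with earlier results of these data known. Where a gene had several probes, the one with the highest mean signal was read. All 36 were on the array, and all were among the 15031 named genes tested. Each was well above background on all 6 arrays, so none entered the test through 1 genotype alone.

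Cells enter mitosis when Cdk1, bound to cyclin B, is freed of its inhibitory phosphates by the Cdc25 phosphatases. The spindle checkpoint then holds the anaphase-promoting complex, a ubiquitin ligase activated by Cdc20, until every kinetochore is attached, after which securin is destroyed and separase cuts cohesin. Transcripts of most of these genes peak late in the cell cycle, and their promoters are known for CCAAT boxes, bound by NF-Y, and for the CHR element TTTGAA, bound by the DREAM and MYB-MuvB complexes. The mouse embryo at this age forms its first somites and divides rapidly.

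RNA came from whole mouse embryos at embryonic day 8.5 whose dams had received tamoxifen by intraperitoneal injection, in both genotypes. The Brg1d/d embryos, called CKO for conditional knockout, were compared with Brg1fl/fl embryos, which carry the floxed gene and which the submitters call wildtype. Brg1, symbol Smarca4, encodes a catalytic ATPase of SWI/SNF complexes, which remodel chromatin. There were 3 samples of either genotype, described as biological replicates and each put on 1 single-colour Agilent array. The sources used here do not say which Cre line was used, when and at what dose tamoxifen was given, or whether embryos were pooled.

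Levels below are log2 processed signals minus the 75th percentile of the array, so that 0 is that percentile, and differences are CKO minus control on the same log2 scale with the standard error (SE) of the limma fit, n = 3 against 3. Smarca4 itself stood at 1.49, 2.65 and 2.0 in CKO 1, 2 and 3 and at 5.28, 4.45 and 4.50 in controls 1, 2 and 3, a difference of -2.69 ± 0.36 (SE; limma adjusted p = 0.0114). The 3 controls and CKO 2 were scanned on one day, and CKO 3 and CKO 1 on a day each. CKO 1 and CKO 3 also differed from the other 4 arrays in their brightest spike-in probe, which read 12934 and 6905 units there and 208550 to 241121 units elsewhere. The difference between CKO 2 and the mean of the 3 controls is therefore given beside the main results as the same-day difference; it rests on 1 CKO array and has no test. Spots well above background made up 68.5% to 73.5% of 43379 per array, and the number of arrays limits the precision.

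The promoters of the genes on which the results turn are shown first, as the 250 bases upstream of the RefSeq start site (build GRCm38.p6), 5′ to 3′ on the strand of the gene. Cdc25b and Ube2c are the members that passed the test, Bub1 and Espl1 had the next largest differences in each direction, and Cdk1 is the central kinase. Capitals mark CCAAT (or ATTGG, its other strand) and TTTGAA (or TTCAAA, its other strand).
Cdc25b, chr2:131186698-131186947, + strand: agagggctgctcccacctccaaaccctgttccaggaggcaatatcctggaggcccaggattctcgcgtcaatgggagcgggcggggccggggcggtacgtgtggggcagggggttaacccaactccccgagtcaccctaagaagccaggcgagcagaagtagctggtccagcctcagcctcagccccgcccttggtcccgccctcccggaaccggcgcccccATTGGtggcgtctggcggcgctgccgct
Ube2c, chr2:164769679-164769928, + strand: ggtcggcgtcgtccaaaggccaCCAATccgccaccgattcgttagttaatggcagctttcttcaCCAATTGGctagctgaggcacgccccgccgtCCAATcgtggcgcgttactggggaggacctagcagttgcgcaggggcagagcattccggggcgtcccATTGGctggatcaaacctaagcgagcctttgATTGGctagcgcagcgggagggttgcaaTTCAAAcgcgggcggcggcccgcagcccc
Bub1, chr2:127831860-127832109, - strand: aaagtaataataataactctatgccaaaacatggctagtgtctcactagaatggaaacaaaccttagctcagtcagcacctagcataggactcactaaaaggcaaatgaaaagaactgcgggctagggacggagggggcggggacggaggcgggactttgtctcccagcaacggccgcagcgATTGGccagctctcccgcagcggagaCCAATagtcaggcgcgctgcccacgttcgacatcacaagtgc
Espl1, chr15:102296043-102296292, + strand: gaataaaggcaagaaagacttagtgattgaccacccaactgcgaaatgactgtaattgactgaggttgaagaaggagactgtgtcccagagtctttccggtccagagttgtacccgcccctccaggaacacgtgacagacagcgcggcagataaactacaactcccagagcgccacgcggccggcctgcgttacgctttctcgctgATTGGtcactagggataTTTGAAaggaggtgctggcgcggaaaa
Cdk1, chr10:69352913-69353162, - strand: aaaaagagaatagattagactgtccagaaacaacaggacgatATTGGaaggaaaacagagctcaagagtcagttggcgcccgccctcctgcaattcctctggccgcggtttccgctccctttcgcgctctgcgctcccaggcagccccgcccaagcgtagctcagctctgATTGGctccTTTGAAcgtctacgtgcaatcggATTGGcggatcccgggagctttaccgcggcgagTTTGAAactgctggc
The Ube2c promoter held 6 CCAAT boxes, 2 of which overlap on opposite strands, and a TTTGAA whose first base lay at -29. In Espl1 a CCAAT at -44 was followed by a TTTGAA at -27, and Cdk1 had 3 CCAAT boxes and a TTTGAA at -71 and at -15. Cdc25b had a single CCAAT, at -28, and Bub1 had 2, at -68 and -42, with no TTTGAA in either.

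Most mitotic genes did not pass the test in CKO embryos, and their levels were closely spaced. Among the 36 genes, 1 rose (Ube2c) and 1 fell (Cdc25b) at a limma adjusted p under 0.05, which is 5.56% of them. Of all genes tested, 10.6% passed, 5.25% as higher and 5.31% as lower. At an unadjusted p under 0.05 there were 5 genes, Ube2c, Espl1 and Cdc25c with higher and Cdc25b and Bub1 with lower means in CKO, which is 13.9% of the 36 and compares with 32.5% of all genes tested. In RNA of whole embryos, fewer cells of a type and less RNA per cell cannot be told apart.

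The median difference over the 36 genes was -0.12, against 0.07 over all genes tested, and the median same-day difference was -0.09, against 0.00. Differences were small in size: the median of their absolute values was 0.22 among the 36 genes and 0.38 among all genes. The 95% interval of the difference lay wholly inside 2-fold in either direction for 31 of the 36 genes (86.1%), and for 54.2% of all genes tested. The other 5 were Cdc25b, Plk4, Bub1, Ube2c and Espl1. The 36 genes were also brighter than most genes, with median levels per array of 2.44 to 2.64 against -0.10 to -0.01 over all genes. Their median SE was 0.17 against 0.21. The part of signal level in the smaller differences and narrower intervals was not tested. Scaling each array to its median in place of its 75th percentile moved the median over all genes from 0.07 to -0.03. That of the 36 genes moved from -0.12 to -0.22. Such scaling shifts all genes of an array alike, so the distance between the medians stayed at -0.19 by construction. Other settings could move this distance. It was -0.091 with scan day or the spike-in difference as a block in the fit, -0.124 with normexp background and -0.287 with no filter on dim probes.

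The arrays of the 2 genotypes did not overlap for 16 of the 36 genes (44.4%), with CKO above control in 6 and below in 10; among all genes tested the share was 41.9%. The summed level of the 36 genes, on the linear scale, ran from 525.8 to 556.0 over the controls and from 505.3 to 535.4 over the CKO arrays, so the ranges overlapped. The median of their levels per array was 2.60, 2.57 and 2.64 for controls 1, 2 and 3, and 2.59, 2.50 and 2.44 for the CKO arrays in the same order. The median SD between arrays of a genotype was 0.12 for control and 0.17 for CKO, against 0.23 and 0.20 over all genes.

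**Figure D1:**
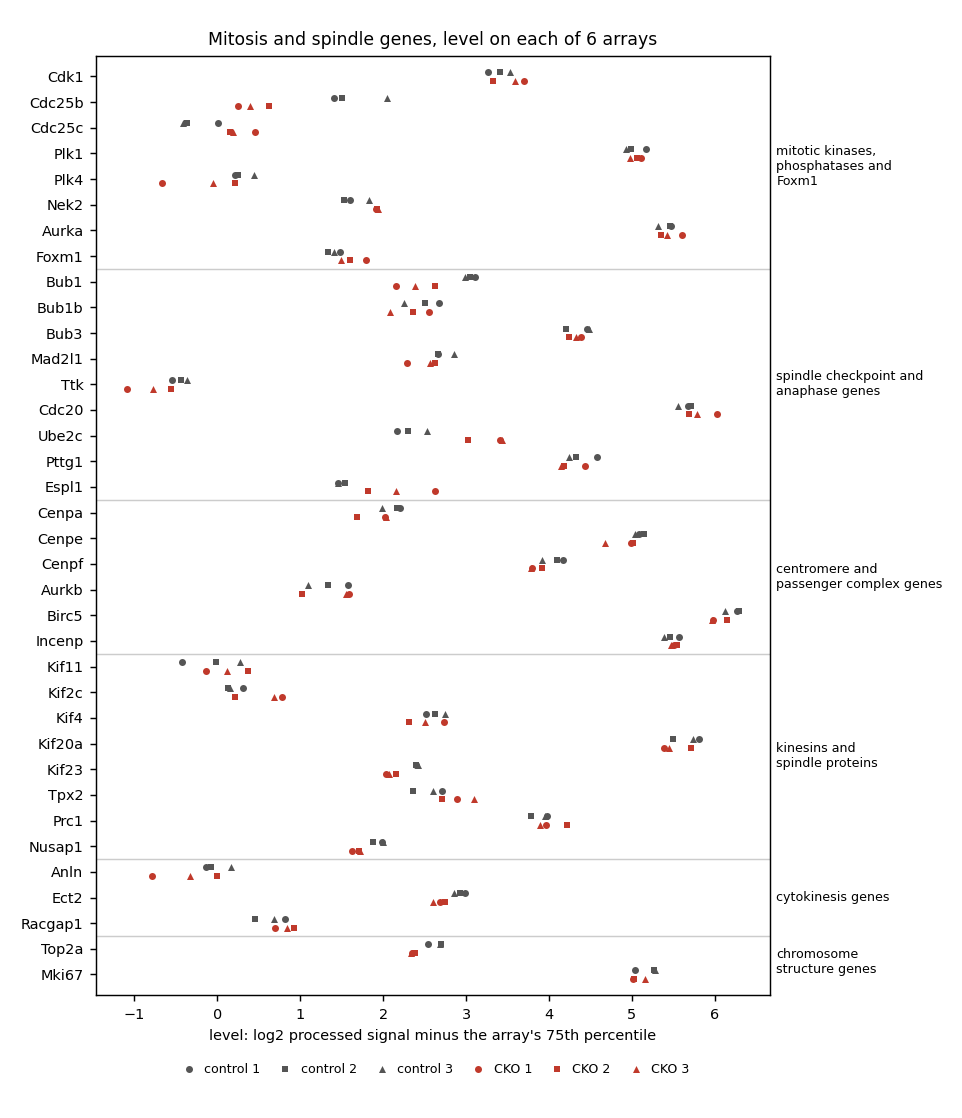
Level of each of the 36 genes on each of the 6 arrays, as log2 processed signal minus the 75th percentile of the array (x axis), grouped by role (rows); controls are grey and CKO red, and the marker shape gives the replicate number. Cdc25b (CKO 0.25 to 0.62, control 1.41 to 2.05) and Ube2c (CKO 3.02 to 3.43, control 2.17 to 2.53) are parted by genotype, while Plk1, Aurka and Incenp overlap.

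The mitotic kinases, their phosphatases and Foxm1 held the largest fall. Cdc25b, the phosphatase that activates Cdk1 at the centrosome before mitosis, was measured at 0.25, 0.62 and 0.39 in CKO 1, 2 and 3 and at 1.41, 1.5 and 2.05 in controls 1, 2 and 3. Every CKO array lay below every control. The difference was -1.24 ± 0.22 (SE), 2.36-fold lower, with a 95% interval from -1.77 to -0.70 and a limma adjusted p of 0.0255; the same-day difference was -1.04. It was the only one of the 36 genes to differ by at least 2-fold.

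Cdc25b was read by 3 probes, all lower in CKO. By the annotation of the array (build mm7, which places probes on the genome but not in exons or UTRs), the probe used above lies in Cdc25b at chr2:130939226-130939282, + strand. The probe at chr2:130939028-130939087 differed by -0.90 ± 0.26 (SE; limma adjusted p = 0.0787) and a probe further 5′ by -0.90 ± 0.27 (SE; limma adjusted p = 0.0846). The 5′ probe showed no overlap either, with CKO at -5.11, -5.17 and -5.31 and control at -4.86, -4.18 and -3.86. The oligonucleotide of the 5′ probe is shown because it lies farthest from the other probes.
Cdc25b 5′ probe, chr2:130933480-130933539, + strand: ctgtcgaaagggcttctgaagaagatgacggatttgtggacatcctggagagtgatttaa

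Cdc25c, the related phosphatase that acts on Cdk1 at mitotic entry, leaned the other way. It was measured at 0.45, 0.15 and 0.19 in CKO 1, 2 and 3 and at 0.01, -0.36 and -0.41 in controls 1, 2 and 3, a difference of 0.52 ± 0.18 (SE; 95% interval 0.08 to 0.96; limma adjusted p = 0.117; same-day 0.41). The arrays did not overlap, but the gene did not pass the test. Cdk1 itself, the target of both phosphatases, was measured at 3.70, 3.32 and 3.59 in CKO and 3.27, 3.41 and 3.53 in control, which overlap (0.13 ± 0.17 SE; 95% interval -0.28 to 0.54; limma adjusted p = 0.619; same-day -0.09).

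Plk4, the kinase that licenses centriole duplication, came after Cdc25b and Bub1 among the lower genes: it stood at -0.67, 0.21 and -0.05 in CKO 1, 2 and 3 and at 0.22, 0.25 and 0.44 in controls, a difference of -0.47 ± 0.25 (SE; 95% interval -1.07 to 0.13; limma adjusted p = 0.235). The same-day difference was only -0.09, with CKO 2 just below the lowest control and CKO 1 the lowest of all arrays. The other tested Plk4 probe differed by -0.44 ± 0.28 (SE, limma adjusted p = 0.309). On that probe CKO 2, at -0.83, lay just above the highest control, at -0.84 (same-day 0.09). Plk1, which drives centrosome maturation and mitotic exit, was at 5.11, 5.06 and 4.98 in CKO and 5.17, 4.99 and 4.93 in control (0.02 ± 0.15 SE; 95% interval -0.34 to 0.37; same-day 0.03), and Aurka, the centrosomal Aurora kinase, differed by 0.04 (same-day -0.06). The sign of both turned under quantile and median scaling. Foxm1, a transcription factor of late cell cycle genes, and Nek2, a kinase of centrosome separation, had CKO arrays wholly above the controls, by 0.22 and 0.28, without passing (limma adjusted p = 0.354 and 0.248; same-day 0.19 and 0.28). Across this group of 8 genes, 1 fell, none rose, and the interval lay inside 2-fold for 6.

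The spindle checkpoint and anaphase genes, 9 in number, held the largest rise. Ube2c, the ubiquitin-conjugating enzyme that works with the anaphase-promoting complex, was measured at 3.41, 3.02 and 3.43 in CKO 1, 2 and 3 and at 2.17, 2.30 and 2.53 in controls 1, 2 and 3. The lowest CKO array stood above the highest control. The difference was 0.95 ± 0.19 (SE), 1.94-fold higher, with a 95% interval from 0.50 to 1.41 and a limma adjusted p of 0.0324; the same-day difference was 0.68. It rests on 1 probe, at chr2:164513170-164513229, + strand (mm7).

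Espl1, or separase, the protease that cuts cohesin, was at 2.63, 1.82 and 2.16 in CKO 1, 2 and 3 and at 1.46, 1.54 and 1.45 in controls 1, 2 and 3. The controls had an SD of 0.05 and the CKO arrays one of 0.41. The difference of 0.72 ± 0.23 (SE, 95% interval 0.17 to 1.26) had a limma adjusted p of 0.0949 and a same-day value of 0.33. Its inhibitor securin, Pttg1, differed by -0.12, and Cdc20 by 0.19, both with overlapping arrays.

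Bub1, a checkpoint kinase at the kinetochore, was at 2.15, 2.63 and 2.39 in CKO 1, 2 and 3 and at 3.11, 3.05 and 2.99 in controls 1, 2 and 3, read by the probe at chr2:127542105-127542164, - strand (mm7). All CKO arrays were below all controls, with a difference of -0.66 ± 0.17 (SE; 95% interval -1.08 to -0.24) and a limma adjusted p of 0.0635; the same-day difference was -0.42. The checkpoint proteins Mad2l1 (-0.23) and Ttk (-0.37), whose product is the kinase Mps1, were also lower on every CKO array, at limma adjusted p = 0.35 and 0.217, and both had a same-day difference of -0.11. Bub1b and Bub3, which bind Cdc20 and Bub1 in the checkpoint, overlapped between genotypes and differed by -0.15 and -0.06. For Bub3 this holds for its highest probe only. Its other tested probes were lower on every CKO array, by -1.14 ± 0.34 (SE, limma adjusted p = 0.0827) and -0.37 ± 0.16 (SE, limma adjusted p = 0.172). The mean of the Bub3 probes differed by -0.52 (limma adjusted p = 0.111).

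**Figure D2:**
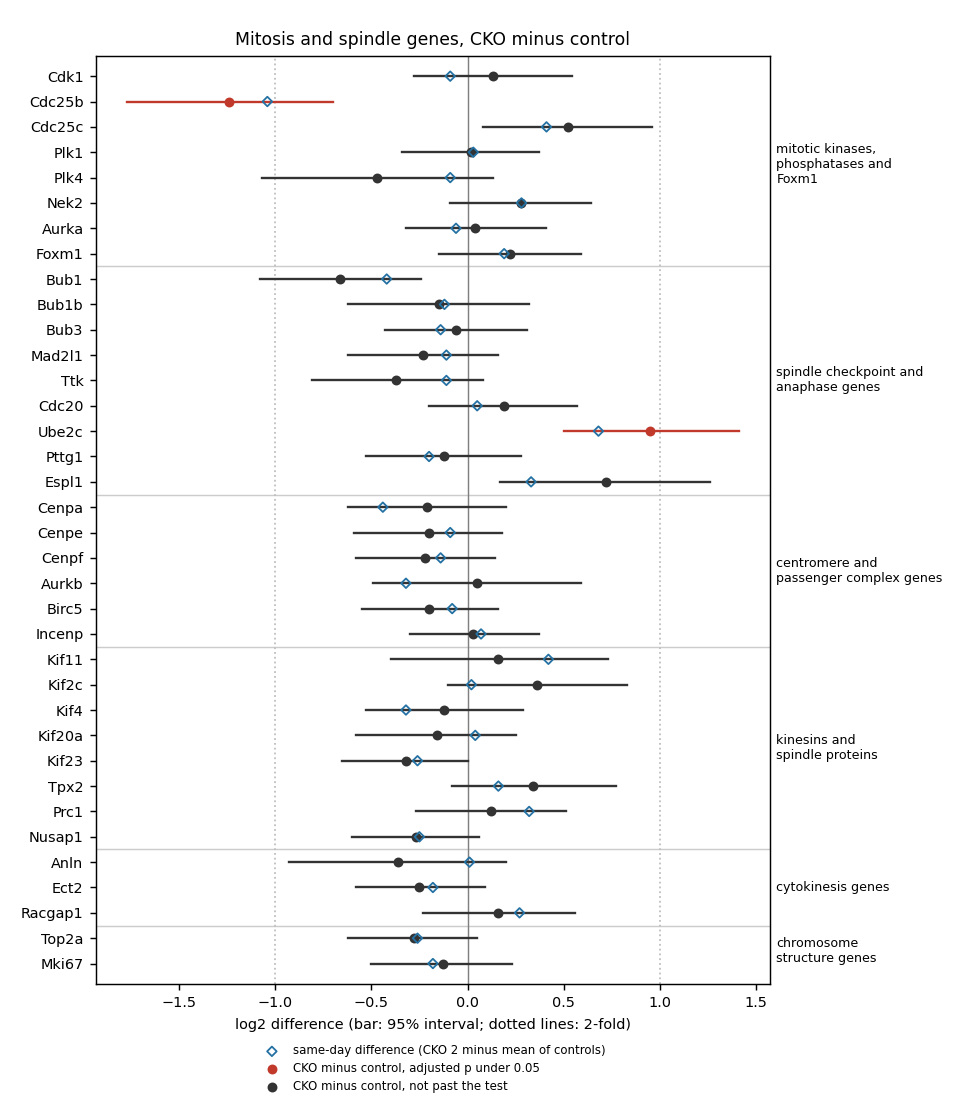
CKO minus control for each of the 36 genes (rows) as log2 difference (x axis), with the 95% interval of the limma fit as a bar, n = 3 against 3; red marks an adjusted p under 0.05 and blue diamonds the same-day difference of CKO 2 from the 3 controls. Cdc25b (-1.24) and Ube2c (0.95) stand at the ends, and 31 intervals stay between the dotted lines at 2-fold.

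No centromere or passenger complex gene passed, and the interval lay inside 2-fold for all 6. Cenpa, the histone H3 variant of centromeres, differed by -0.21, with CKO 2 alone below every control at 1.68 against 1.99 to 2.20. Cenpe, a kinetochore motor, had all CKO arrays below the controls through its highest probe (-0.20; limma adjusted p = 0.403), and Cenpf, a kinetochore protein, differed by -0.22. The 3 genes of the chromosomal passenger complex were at -0.20 for Birc5 (survivin), 0.05 for the kinase Aurkb (same-day -0.32) and 0.03 for the scaffold Incenp. The sign of Aurkb turned under median scaling and that of Incenp under quantile and median scaling.

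The kinesins and spindle proteins spanned -0.32 to 0.36, and the interval of all 8 lay inside 2-fold. Kif23, a kinesin of the central spindle, had the tightest controls of the 36 genes, at 2.40, 2.40 and 2.42, and stood lower on each CKO array, at 2.03, 2.15 and 2.07 (-0.32 ± 0.14 SE; limma adjusted p = 0.16; same-day -0.26). Nusap1, which bundles spindle microtubules, was likewise lower on each CKO array (-0.27; limma adjusted p = 0.226). Tpx2, an activator of Aurora A on the spindle, was higher on each (0.34; limma adjusted p = 0.228; same-day 0.16), while Kif2c, a microtubule depolymerase, was higher by 0.36 with a same-day difference of 0.02. Kif4, Kif11, Kif20a and Prc1, which move or cross-link spindle microtubules, overlapped between genotypes by their highest probes, with differences from -0.16 to 0.16. Kif20a differed by -0.16 over all arrays and by 0.04 on the same day. Another Kif4 probe was lower on every CKO array (-0.33 ± 0.15 SE, limma adjusted p = 0.179).

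In the cytokinesis group, Ect2, the exchange factor that activates RhoA at the division site, was lower on every CKO array (-0.25; limma adjusted p = 0.267). Anln (anillin) differed by -0.36 and by 0.01 on the same day through its highest probe. Another Anln probe was lower on every CKO array (-0.61 ± 0.21 SE, limma adjusted p = 0.114, same-day -0.23). Racgap1, the partner of Kif23, differed by 0.16. Both chromosome structure genes were lower: Top2a, the topoisomerase that untangles sister chromatids, without overlap (-0.28 ± 0.14 SE; limma adjusted p = 0.21; same-day -0.26), and Mki67, the antigen Ki-67 that coats mitotic chromosomes, with overlap (-0.13). None of these 5 genes passed, and all 5 intervals lay inside 2-fold.

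The 2 calls depended on single arrays and on scan day and spike-in blocks. Cdc25b did not pass without CKO 1 (limma adjusted p = 0.102), CKO 3 (0.103) or control 2 (0.0906), nor Ube2c without CKO 1 (0.118), CKO 3 (0.129), control 2 (0.132) or control 3 (0.0546), though the differences kept their size, at -1.31 to -1.15 and 0.88 to 1.05. Without CKO 2, Bub1 (0.0352) and Espl1 (0.0378) passed as well, making 4. CKO 2 is the only CKO array scanned with the controls and with their bright spike-in signal. Without it, genotype cannot be told apart from scan day or the spike-in split. With the scan day as a block the adjusted p was 0.427 for Cdc25b and 0.462 for Ube2c, and with the spike-in split 0.253 and 0.289; the differences were then the same-day ones. With no filter on dim probes the adjusted p was 0.0554 and 0.0673.

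Different probes of a gene mostly had differences of the same sign. The 36 genes had 63 probes on the array, 59 of them tested, and 18 genes had more than 1. In 15 of these all probes had the same sign, and in Cenpf, Kif11 and Top2a they did not. The Top2a probes show how far apart they could be, and the 5′ and the 3′ probe are printed with their mm7 positions, each spanning more genome than its own length.
Top2a 5′ probe, chr11:99124086-99125113, - strand: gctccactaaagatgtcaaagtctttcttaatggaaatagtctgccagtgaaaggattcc
Top2a 3′ probe, chr11:99104969-99105783, - strand: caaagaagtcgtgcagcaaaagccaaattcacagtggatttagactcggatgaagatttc
The 5′ probe was at -2.36, -1.30 and -2.13 in CKO 1, 2 and 3 and at -0.91, -0.69 and -0.90 in controls 1, 2 and 3 (-1.10 ± 0.29 SE; limma adjusted p = 0.0655), against -0.28 for the 3′ probe. Another probe, between them at chr11:99106757-99106816, was higher on every CKO array (0.92 ± 0.22 SE; limma adjusted p = 0.0513).

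In Cenpe and Ect2 the 5′ probe was low on CKO 1 and CKO 3 only, whereas in Top2a it was below the controls on CKO 2 as well (same-day -0.46). The 5′ probe of Cenpe was at -3.57, -0.52 and -2.33 in CKO 1, 2 and 3 and at -0.42, -0.89 and -0.86 in controls, with CKO 2 within the range of the controls (-1.41 ± 0.71 SE; limma adjusted p = 0.219; same-day 0.21). That of Ect2 was at -4.04, -2.34 and -3.28 against -2.17, -2.54 and -2.03 (-0.98 ± 0.42 SE; limma adjusted p = 0.169; same-day -0.10). Taken as 5′ minus 3′ probe relative to the control mean, CKO 1, 2 and 3 stood at -2.74, 0.29 and -1.18 for Cenpe, -1.57, 0.08 and -0.71 for Ect2, and -1.23, -0.21 and -1.0 for Top2a. CKO 1 and CKO 3 are the arrays with the dim spike-in signal, and the part of that split in these probes was not tested. Over the 16 of the 36 genes with a probe pair at least 500 bases apart the medians were -0.05, 0.06 and -0.02, and over 5534 such genes in all 0.08, 0.17 and 0.16. In Racgap1 the 5′ probe was instead higher on every CKO array, at -1.27, -1.04 and -1.01 against -1.59, -1.70 and -1.68 (0.55 ± 0.15 SE; limma adjusted p = 0.0683), while the 3′ probe differed by 0.16. These 4 genes were picked out after their values were seen.

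**Figure D3:**
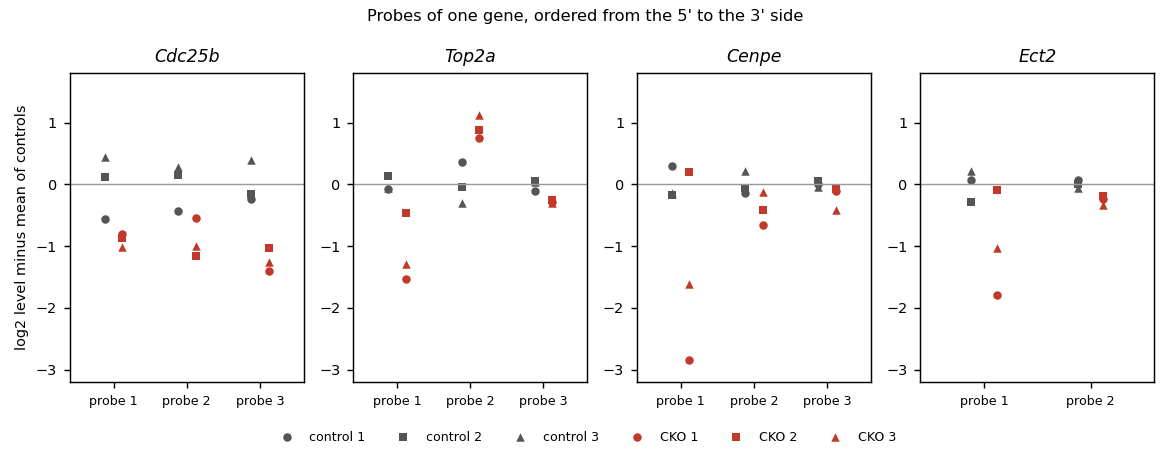
Level of each probe minus the mean of the 3 controls (y axis, log2) for Cdc25b, Top2a, Cenpe and Ect2, with the probes ordered from the 5′ to the 3′ side (x axis), controls in grey and CKO in red. The Cdc25b probes all have lower CKO means, whereas the 5′ probes of Cenpe and Ect2 are low on CKO 1 and CKO 3 and near the controls on CKO 2.

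Other genes of mitosis had a like spread. Of 89 further mitosis genes tested (of 90 listed), 4 rose and 1 fell (5.62%), with a median difference of -0.12, a median same-day difference of -0.06 and an interval inside 2-fold for 72 (80.9%). Dlgap5, a spindle microtubule binder, stood at 0.13, 0.16 and 0.65 in CKO 1, 2 and 3 and at -1.09, -0.60 and -0.65 in controls, a rise of 1.09 (limma adjusted p = 0.0345; same-day 0.94). Ccnf, or cyclin F, rose by 0.86 (limma adjusted p = 0.0386), Spc24, of the kinetochore Ndc80 complex, by 0.83 (limma adjusted p = 0.0395), and Cenpt, of the inner kinetochore, by 0.72 (limma adjusted p = 0.0449), with same-day differences of 0.59, 0.68 and 0.48. Spc24 and Cenpt did not pass under median scaling (limma adjusted p = 0.0764 and 0.0735). Cit, the citron kinase of the midbody, fell by 0.90 (limma adjusted p = 0.0436; same-day -0.66) through its highest probe, but by the mean of its probes it differed by -0.06 (limma adjusted p = 0.789). The mean of the Dlgap5 probes differed by 0.53 (limma adjusted p = 0.0993).

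Genes of the phases before mitosis were set beside them. Of 48 DNA replication genes, Pold2, a subunit of polymerase delta, rose by 1.40 (limma adjusted p = 0.0105; same-day 1.34) and Rrm2, of ribonucleotide reductase, fell by 0.66 (limma adjusted p = 0.0391; same-day -0.66), 4.17% in all, with a median difference of -0.10. Of 29 cyclin and E2F genes of G1 and S phase, E2f2 fell by 0.61 (limma adjusted p = 0.048; same-day -0.50), 3.45%, with a median of -0.13. The 4 lists thus had medians from -0.13 to -0.10 and passing shares from 3.45% to 5.62%, against 10.6% of all genes.

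**Figure D4:**
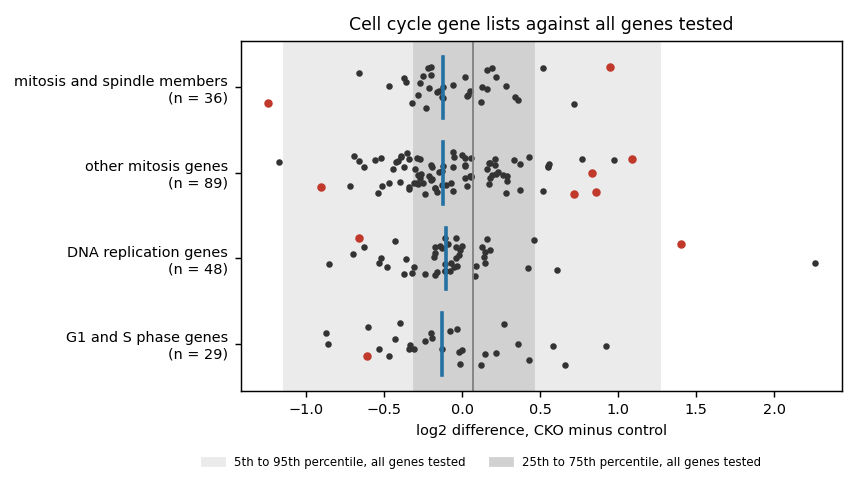
CKO minus control (x axis, log2 difference) for each gene of 4 cell cycle lists (rows; points are spread vertically for sight only), with red points past an adjusted p of 0.05, a blue bar at each median, and grey bands for the 25th to 75th (-0.31 to 0.46) and 5th to 95th percentile (-1.14 to 1.27) of all 15031 genes. The medians of the lists lie from -0.13 to -0.10, left of the line at 0.07 for all genes.

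Marker lists of the embryo and of tissues around it were read on the same arrays. Of 22 embryo tissue markers, all measured, 8 fell and none rose (median -1.02; summed level 31.9 to 48.8 in controls and 26.5 to 33.1 in CKO). Of 15 measured trophoblast genes 5 rose and none fell (median 1.10; 176.5 to 260.5 against 303.5 to 329.4). Of the 18 listed, Gcm1 and Tpbpa did not pass the filter on dim probes and Prl2c2 had no probe by that name. Of 13 measured maternal decidua genes 1 rose and 6 fell (median -0.46; 16.99 to 25.17 against 9.02 to 14.8; Pgr and Esr1 of 15 did not pass the filter). The differences of single decidua genes were far apart, from -4.65 to 4.47. Of 24 erythroid genes 4 fell (median -0.95; 83.6 to 376.5 against 97.0 to 114.5; Rhag did not pass the filter and Ahsp had no probe by that name), of 28 yolk sac endoderm genes 1 rose (median 0.62; 161.4 to 836.5 against 672.7 to 784.4; Serpina1a had no probe by that name), and of 12 leukocyte genes 1 fell (median 0.54; 0.908 to 2.12 against 1.20 to 1.67; 5 of 17 did not pass the filter, Cd79a, Cd3g, Itgam, Adgre1 and Cd48). The shares that passed were 36.4% for embryo tissue markers, 33.3% for trophoblast, 53.8% for decidua and 16.7% for erythroid genes. For yolk sac endoderm and leukocyte genes they were 3.57% and 8.33%, against 10.6% of all genes tested. Control 1 lay below the other controls with a median log2 difference of -2.91 for the erythroid and -2.69 for the yolk sac genes. For the embryo tissue markers it lay above them, with a median of 0.88 and 19 of 22 genes higher. The median was -0.43 for trophoblast, -0.45 for leukocyte and 0.03 for decidua genes, and 0.07 for the 36 mitotic genes. The median same-day differences were -0.76 for embryo tissue markers, 1.08 for trophoblast, -0.47 for decidua, -1.11 for erythroid and 0.48 for yolk sac genes. For leukocyte genes it was -0.16, the reverse in sign of the median over all arrays. The part of tissue make-up in the values of Cdc25b and Ube2c was not tested.

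The mitotic genes shared promoter sequences that their choice did not use. RefSeq promoters, from 250 bases before to 50 after the start site, were found for 30 of the 36 genes by symbol, 3 of them with more than 1 promoter; Aurkb, Kif20a, Cdc25c, Foxm1, Incenp and Tpx2 had none in the table. CCAAT, sought on both strands, was in the promoter of 23 genes (76.7%), against 42.4% of 11943 tested genes with a promoter. TTTGAA, sought on both strands, was in 21 (70.0%) against 14.5%, and both together in 19 (63.3%) against 5.94%. Over all 27025 genes of the table the shares were 41.1%, 20.2% and 7.97%. The E2F box TTCCCGCC, on both strands, was in 0 of the 30, against 4.46% of tested genes, which says only that these letters are not in these windows. A match is a description of sequence and was not measured as a bound site, and none of the 3 motifs contains another.

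The TTTGAA matches lay closer to the start site than the CCAAT matches. A match seen from more than 1 start site of a gene was counted once, from the nearest. The 26 TTTGAA matches had a median first base at -10.0, and 20 of them lay within 60 bases before to 50 after the start. The 48 CCAAT matches had a median at -66.5 and reached back to -228; 23 of them lay in that same stretch, and 14 genes had at least 2. Among other mitosis genes (77 with a promoter) CCAAT was in 61.0% and TTTGAA in 46.8%, while DNA replication genes (39) had 59.0% and 17.9%, with TTCCCGCC in 20.5%. The G1 and S phase genes (21) stood at 47.6%, 33.3% and 9.52%.

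Genes with both motifs had small differences between genotypes apart from Ube2c and Espl1. Those 19 genes had a median difference of -0.06 and ranged from -0.37 to 0.95. The 4 genes with CCAAT alone, Bub1, Cdc25b, Cenpe and Nek2, ranged from -1.24 to 0.28 (median -0.43). The 2 with TTTGAA alone, Anln and Kif2c, stood at -0.36 and 0.36. The 5 with neither, Birc5, Mad2l1, Nusap1, Plk4 and Pttg1, ranged from -0.47 to -0.12 (median -0.23). No test was made between these groups.

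**Figure D5:**
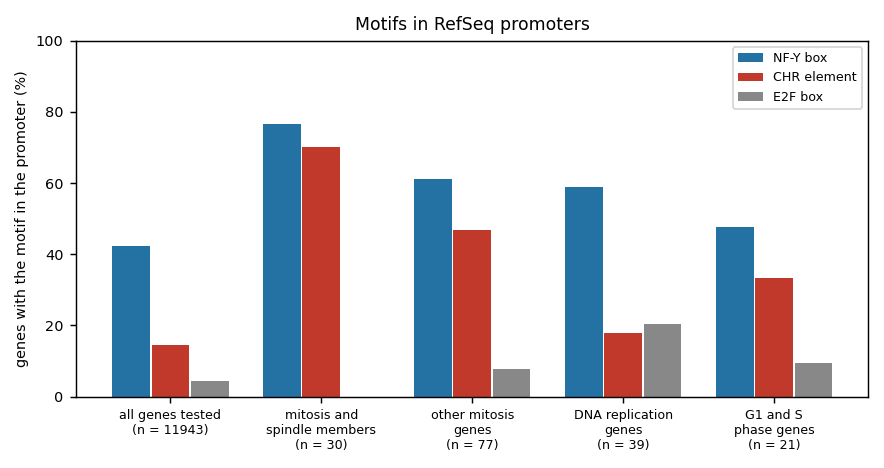
Share of genes (y axis, percent) whose RefSeq promoter holds the NF-Y box, the CHR element or the E2F box on either strand, for all tested genes and 4 cell cycle lists (x axis, with the number of genes that have a promoter). The CHR element is in 70.0% of the mitosis and spindle genes and 14.5% of all tested genes, and the E2F box in none of the former.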

How the data were processed

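Cy3-labelled RNA of 3 CKO and 3 control samples, 250 ng each, was hybridised to Agilent mouse arrays. Per the file headers, the deposited intensity values were made with Agilent Feature Extraction 9.5: background was subtracted, spatial trends were removed, and a surrogate was put where a spot was not significantly above background. Raw mean and background intensity and flags of 0 or 1 are further deposited columns. The deposited series table equals the processed signal and served as an alternative.

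Control and outlier spots were left out, spots of a probe were averaged, and log2 signals were set against the 75th percentile of each array. Probes well above background on all 3 arrays of a genotype were kept (27860). Probes were named through RefSeq accessions, symbols or synonyms where possible. CKO and control were compared with limma 3.58.1 (lmFit, eBayes, two-sided; R 4.3.3). P-values were adjusted by Benjamini-Hochberg over every kept probe at a threshold of 0.05. A gene was read through its kept probe with the highest mean. On simulated data with few changed probes, the fit missed most changes of 2-fold or less. In the real data 10.6% of genes passed, so the simulated rate need not hold here. Not passing the test does not show that a gene is unchanged. The labels call the samples biological replicates without naming litters, so p-values measure the spread between these samples.

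The members, the lists and the way genes were picked for naming were chosen with earlier results of these data known. The rule for naming takes every member that passes, the 3 largest differences in each direction, each role group with at least 2 members, up to 6 passing genes of the other lists, and Smarca4. Alternatives were other scalings (quantile, median), normexp background with an offset of 50, no filter or a filter on all 6 arrays, the series table, an intensity trend with robust eBayes, slide, scan day, spike-in split and replicate number as blocks, the mean of a gene's probes, stricter thresholds, and each array left out. Python 3.11.15, pandas 2.3.3 and matplotlib 3.10.9 read the files and drew the plots. Some names of the lists were not on the array and are not analysed here.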

Additional observations from a re-analysis of the deposited data

How the results depend on the processing

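Among the 36 mitosis and spindle genes the count of 2 calls became 0 with no filter, with scan day, the spike-in split (CKO 1 and CKO 3 against the rest) or the replicate number as a block, and at a threshold of 0.01, and 1 (Cdc25b) when a 2-fold change was also asked for. It ran from 0 (without CKO 1, CKO 3 or control 2) to 4 (without CKO 2) when an array was left out, and was 1 without control 3. For this and every count below, leaving out CKO 2 also leaves no CKO array scanned on the day of the controls. Their median difference of -0.122 was -0.222 under median scaling and -0.087 with the scan day or the spike-in split as a block, and ran from -0.125 to -0.04, the latter without control 1. No called difference of these genes reversed under the 20 alternatives; 8 genes that were not called changed sign under at least 1 alternative (Anln, Aurka, Aurkb, Cdk1, Incenp, Kif11, Kif20a and Plk1), and the other 28 kept theirs. Bub1 passed with normexp background (limma adjusted p = 0.0482) and with the trend and robust eBayes (0.03).

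For the other mitosis genes the count of 5 was 8 with normexp background, 9 with trend and robust eBayes, 3 with slide as a random block, 1 with the 2-fold threshold, and 0 with no filter, the scan day block, the spike-in split as a block, the replicate block or the threshold of 0.01, and ran from 0 (without CKO 1, CKO 3, control 2 or control 3) to 12 (without CKO 2). Their median of -0.125 was -0.225 under median scaling, -0.059 with normexp, and -0.058 with scan day or the spike-in split as a block, and ran from -0.136 to -0.063. For DNA replication genes the count of 2 was 5 with normexp, 6 with trend and robust eBayes, 1 with no filter, the replicate block or the 2-fold threshold, and 0 with the scan day block, the spike-in split as a block or the threshold of 0.01, and ran from 0 (without CKO 1, CKO 3 or control 2) to 5 (without CKO 2), with 4 without control 1 and 1 without control 3; their median of -0.102 was -0.202 under median scaling. For G1 and S phase genes the count of 1 was 2 with normexp or trend and robust eBayes and 0 under median scaling, no filter, slide as a random block, the scan day, spike-in split and replicate blocks, the 2-fold threshold and the threshold of 0.01, and ran from 0 (without CKO 1, CKO 3, control 2 or control 3) to 3 (without CKO 2), with 2 without control 1.

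Over all genes, 1587 calls became 694 with no filter, 122 with the spike-in split as a block, 572 with the replicate block and 263 at 0.01, and ran from 304 (without control 2) to 2916 (without CKO 2), with 327 without CKO 1, 343 without CKO 3 and 923 without control 3. With the scan day block limma called 0 genes (1795 had an unadjusted p under 0.05, and 4891 had one without the block), and each block leaves fewer degrees of freedom. Same-numbered arrays correlated at -0.127, 0.0807 and 0.0906 in their deviations from the group means. The labels name no litters, so these values do not settle whether the replicate numbers pair the samples. With Cdc25b and Ube2c the replicate block gave limma adjusted p = 0.0653 and 0.0742. The cause of these changes was not tested. Each member was well above background on all 6 arrays, so no level of theirs is a bound.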
